A study of Homo sapiens with 6 samples.

Results

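The aminoacyl-tRNA synthetases are described here in MEG-01, a human cell line from a megakaryoblastic leukaemia, with and without a short hairpin RNA against the kinase MELK. The 38 genes were taken from a given list by symbol, from a table of 61852 genes, and all 38 were found. They are 19 genes of cytosolic enzymes, 16 of mitochondrial enzymes and 3 of scaffold proteins, and the list does not hold every synthetase gene. The study compared 3 control libraries, from cells transduced with the control vector pLKO.1, with 3 knockdown libraries, from cells transduced with the hairpin sh2-MELK. Both groups are MEG-01 cells carrying a lentiviral construct, and the knockdown rests on 1 hairpin. The labels call the libraries of a group biological replicates and do not say whether each came from its own transduction or culture, so each p-value reflects only how far these libraries vary, and that variation may be technical. All 6 carry the same batch label.

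Each synthetase joins an amino acid to its tRNAs, the step that sets which amino acid a codon is read as. Cells keep separate sets for translation in the cytosol and for the small set of proteins that mitochondria make, and most amino acids have a gene for each. Several cytosolic enzymes sit with the scaffold proteins AIMP1, AIMP2 and EEF1E1 in the multi-synthetase complex. The transcription factor ATF4, which acts when amino acids are short, is known to drive many of the cytosolic genes.

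The libraries held between 18945176 and 21711313 counts. Low values in the table do not look like unaltered read counts: 35797 genes (57.9%) held only 0, 1, 2, 10 and 100, in shares of 19.8% to 20.4%, as if a number drawn from these had been added to each read count. That number matters little for abundant genes and much for those with counts near 100. MELK itself had counts of 219, 206 and 238 in the control, against 16, 124 and 26 in the knockdown, with a log2 fold change of -1.98 ± 0.69 (SE) that did not pass the threshold (edgeR quasi-likelihood test, adjusted p = 0.104). A model of the added number gave -3.38 (95% interval -3.86 to -2.96, which may be too narrow at these counts), and MELK passed in it. It also passed with limma-voom (-2.48, adjusted p = 0.0487). With edgeR it passed with a filter of 5 CPM in 3 libraries (-1.99, adjusted p = 0.0204) and with no filter (-1.98, 0.00961). MELK did not pass with DESeq2 (-1.98, adjusted p = 0.0660). Nor did it with other scalings (edgeR adjusted p of 0.0980 to 0.114) or with the replicate number as a block (-2.52, 0.0566). Without knockdown library 2 the edgeR value was -3.32 (adjusted p = 0.00271). Without any 1 of the other libraries MELK did not pass (edgeR adjusted p of 0.201 to 0.276). The smallest decrease was -1.54, without knockdown library 1. Of 9 megakaryocyte markers 6 fell, TAL1 rose, and GP9 and PF4 were near the level of the added number. Of all genes tested 8.43% were called lower, and 38.9% in a fit of genes that average 500 counts or more. Among the markers that fell were ITGA2B (2024 ± 64.0 CPM against 1061 ± 20.8, SD, n = 3) and GATA1 (241 ± 6.45 against 163 ± 6.22). Lymphocyte and stromal markers were within its reach except COL1A1, and CD3D and COL1A1 were higher in every knockdown library, with CD3D counts of 16, 9 and 4 against 105, 104 and 107 and COL1A1 counts of 14, 45 and 20 against 158, 71 and 171. Neither passed, and the part of these shifts in the synthetase results was not tested. In bulk RNA, fewer cells of a type and less RNA per cell cannot be told apart.

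Cytosolic enzyme genes leaned lower in the knockdown and mitochondrial enzyme genes leaned higher. Of 19 cytosolic genes 10 fell, 3 rose and 6 did not pass; of 16 mitochondrial genes 6 rose, 1 fell and 9 did not pass; and none of the 3 scaffold genes passed (edgeR quasi-likelihood test over all 28303 genes tested, Benjamini-Hochberg adjusted p below 0.05). Over all genes tested, 16.5% passed, 8.12% as higher and 8.43% as lower. All 38 members passed the filter on low counts. The median log2 fold change was -0.16 over the cytosolic genes and 0.19 over the mitochondrial genes, against 0.02 over all genes tested. These members are better measured than most genes, so the 5038 genes that average 500 counts or more are the closer background, and among them 77.0% passed, 38.1% as higher and 38.9% as lower. In that fit 5 cytosolic genes were higher and 10 lower of 17, and 4 mitochondrial genes were higher and 2 lower of 9. The share of members that changed is thus near that of other well-measured genes. The medians there were -0.14 for the cytosolic and 0.11 for the mitochondrial genes, against -0.002 over all such genes. Single genes there had quartiles of -0.36 and 0.35. A median over several genes varies less than a single gene, so these quartiles cannot place the medians. No test was made over the lists. The count of changed mitochondrial genes dropped from 7 to 4 without control library 3 or knockdown library 1. Their median rose to 0.32 without control library 2, 0.34 without knockdown library 1 and 0.30 without knockdown library 3.

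**Figure D1:**
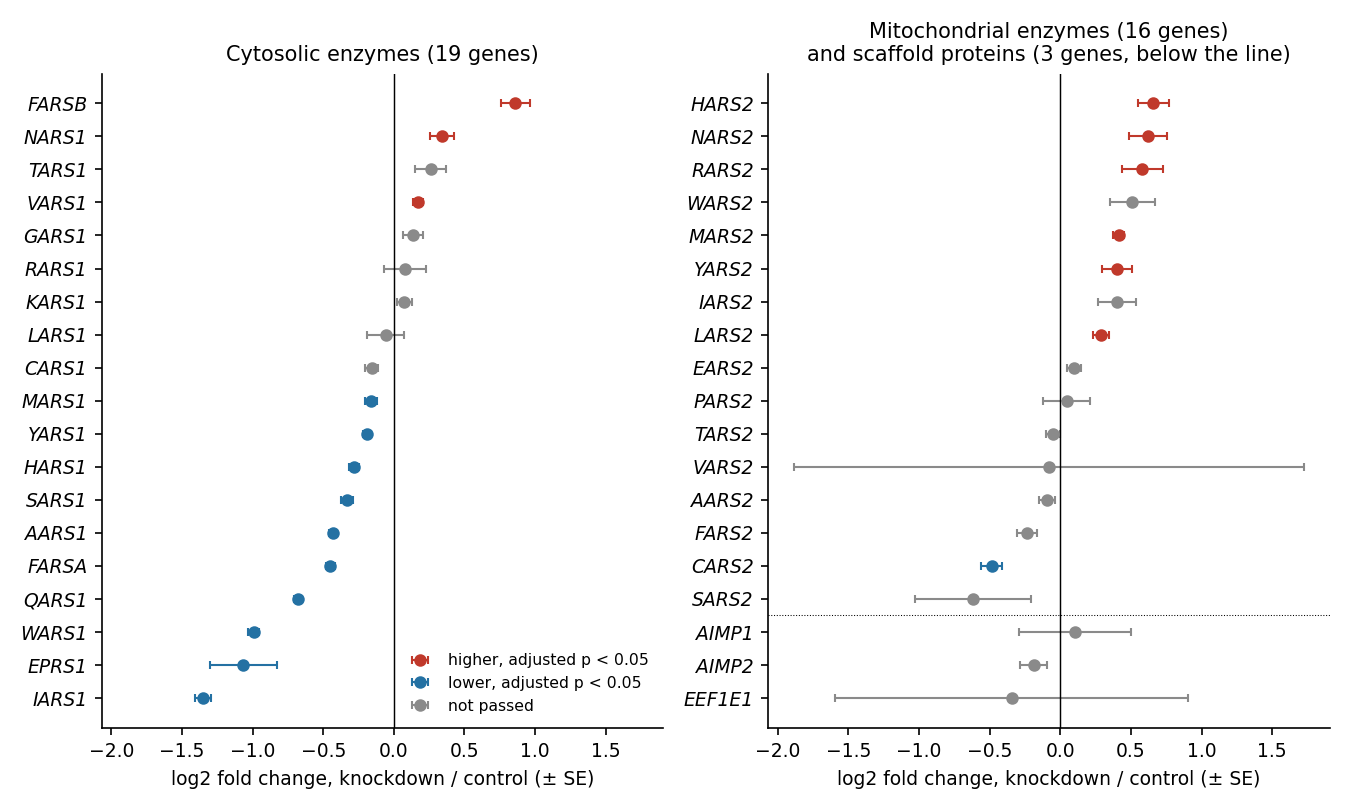
Log2 fold change (knockdown over control, edgeR, bars are SE) of the 19 cytosolic genes on the left and the 16 mitochondrial and 3 scaffold genes on the right. Blue and red points passed the threshold: 10 cytosolic genes lie left of 0 and 3 right of it, and 6 mitochondrial genes lie right of 0 and 1 left.

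Summed over the 19 cytosolic genes, the level was 3642, 3674 and 3715 CPM in the control, against 3004, 3044 and 3002 CPM in the knockdown libraries. The same sum over the 16 mitochondrial genes was 584, 585 and 574 CPM in the control, against 617, 653 and 639 CPM in the knockdown. The groups did not overlap in either sum, and the directions of the sums were opposite. The median log2 CPM over the cytosolic genes did not follow their sum: it was 6.89, 7.10 and 6.98 in the control, against 7.06, 7.11 and 7.14 in the knockdown, and these groups overlap. Mitochondrial genes held between 13.4% and 13.8% of the sum over both sets in the control, against 17.1% to 17.7% in the knockdown. Per kilobase of the union of exons, the median control level was 23.7 CPM per kb for a cytosolic gene and 7.16 CPM per kb for a mitochondrial one. FARSA was the highest at 172 CPM per kb and VARS2 the lowest at 0.256, while by the length of the longest transcript SARS1 was the highest at 210 CPM per kb. The sums therefore follow mainly the abundant genes.

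**Figure D2:**
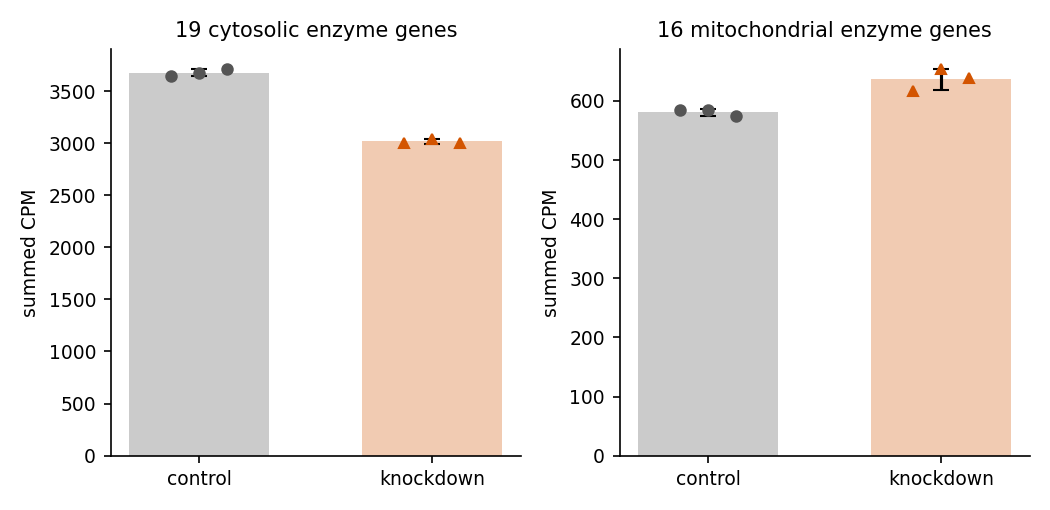
Summed CPM of the 19 cytosolic (left) and 16 mitochondrial (right) enzyme genes in each library, with bars for the group mean and error bars for the SD (n = 3). Cytosolic sums are at least 3642 CPM in the control and at most 3044 CPM in the knockdown, and mitochondrial sums lie between 574 and 585 CPM in the control and between 617 and 653 CPM in the knockdown.

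The largest decrease was in IARS1, the isoleucine enzyme of the multi-synthetase complex (ENSG00000196305, GRCh38 chromosome 9, 92210207 to 92293756). It stood at 69.4, 69.7 and 74.6 CPM in the control libraries, against 28.97, 28.0 and 26.9 CPM in the knockdown libraries. Every knockdown library was below every control library, at 0.393 of the control mean. The log2 fold change was -1.35 ± 0.06 (SE, edgeR adjusted p = 1.23e-06), and it ranged from -1.38 to -1.30 with 1 library left out. QARS1, which charges glutamine tRNA and has no mitochondrial counterpart, was at 398, 384 and 388 CPM in the control, against 240, 247 and 243 CPM in the knockdown (chromosome 3, 49095932 to 49105135). Its groups were far apart relative to their spread, with a log2 fold change of -0.68 ± 0.03 (edgeR adjusted p = 1.10e-06). EPRS1, whose protein charges both glutamate and proline tRNA, had few counts, 333, 261 and 198 in the control, against 125, 138 and 107 in the knockdown. Its level was 13.2 ± 3.34 CPM in the control, against 6.29 ± 0.595 CPM (SD, n = 3). Its log2 fold change came to -1.07 ± 0.24 (edgeR adjusted p = 0.0154). For EPRS1 the added number is a large part of the value: the model of it gave -0.66 (95% interval -1.08 to -0.45). The EPRS1 call was also lost without control library 1 or 2 or knockdown library 1 or 3 (log2 fold changes of -0.88, -1.04, -1.07 and -0.996, adjusted p of 0.0656, 0.0624, 0.0594 and 0.0637), and with limma-voom (adjusted p = 0.0780) or no filter on low counts (edgeR adjusted p = 0.0554).

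Of the 10 genes of the multi-synthetase complex on the list, 4 fell, none rose and 6 did not pass (edgeR, as above, against 8.43% lower and 8.12% higher of all genes). Among the well-measured genes 3 of its 6 members passed, against 77.0% of all such genes. MARS1, the methionine enzyme, was the fourth to fall, from 166 ± 7.64 to 149 ± 4.01 CPM (log2 fold change -0.16 ± 0.04, edgeR adjusted p = 0.0372). MARS1 kept its call only without control library 1; without any 1 of the others the log2 fold change was -0.11 to -0.18 and the adjusted p 0.0816 to 0.155. The MARS1 call was also lost with RLE scaling (-0.16, edgeR adjusted p = 0.0594) and with library size alone (-0.090, 0.233). MARS1 also shares 355 exon bases with DDIT3 and 519 with ARHGAP9 on the opposite strand, and whether the counting used strand is not given in the sources used here. LARS1 (leucine), RARS1 (arginine) and KARS1 (lysine) had log2 fold changes of -0.06 ± 0.13, 0.08 ± 0.15 and 0.08 ± 0.05 and did not pass. KARS1 encodes the lysine enzyme of both compartments.

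The scaffold genes gave no call. AIMP2, the core scaffold that holds the complex together, was at 47.3, 50.7 and 45.5 CPM in the control, against 46.6, 43.2 and 36.1 CPM in the knockdown. These groups overlap, and the log2 difference of -0.19 ± 0.10 did not pass (edgeR adjusted p = 0.304) and was -0.091 without knockdown library 3. AIMP2 shares 532 exon bases, 28.9% of its exons, with EIF2AK1, a gene with a mean of 3776 counts on the opposite strand. AIMP1, which is also the precursor of a secreted cytokine, had counts of 229, 116 and 110 in the control, against 109, 237 and 131 in the knockdown. In each group 1 library stood about 100 counts above the others, the size of the largest added number, so AIMP1 gives no direction (0.10 ± 0.40). EEF1E1, the smallest of the scaffold proteins, had counts of 48, 70 and 51 in the control, against 41, 40 and 49 in the knockdown, too few to decide (-0.35 ± 1.25).

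Outside the complex WARS1, the tryptophan enzyme and an interferon-inducible gene, fell most. Its level was 370, 395 and 398 CPM in the control, against 194, 200 and 190 CPM in the knockdown (chromosome 14, 100333788 to 100376805). The knockdown mean was 0.503 of the control mean, with a log2 fold change of -0.99 ± 0.04 (edgeR adjusted p = 9.77e-07). AARS1, the alanine enzyme, was at 366, 372 and 369 CPM in the control, against 270, 277 and 274 CPM in the knockdown. The spread within a group of AARS1 values was small beside the gap, with a log2 fold change of -0.43 ± 0.03 (edgeR adjusted p = 9.01e-06). SARS1 (serine) fell by 0.33 ± 0.04, HARS1 (histidine) by 0.28 ± 0.04 and YARS1 (tyrosine) by 0.19 ± 0.03 on the log2 scale, with edgeR adjusted p of 0.00205 or less. CARS1 (cysteine) at -0.16 ± 0.05, GARS1 (glycine, for both compartments) at 0.14 ± 0.07 and TARS1 (threonine) at 0.26 ± 0.11 did not pass. VARS1, the valine enzyme, which binds elongation factor 1, was at 419, 387 and 393 CPM in the control, against 450, 452 and 448 CPM in the knockdown. VARS1 rose by a small amount, 0.17 ± 0.03 (edgeR adjusted p = 0.00889), with groups that did not overlap. NARS1, the asparagine enzyme, was at 31.3, 28.97 and 25.9 CPM in the control, against 35.6, 36.0 and 37.4 CPM in the knockdown, a log2 fold change of 0.34 ± 0.08 (edgeR adjusted p = 0.0255). The NARS1 call was lost without control library 2 or 3 or any 1 of the knockdown libraries (log2 fold changes of 0.28 to 0.35, adjusted p of 0.0544 to 0.0999), and with limma-voom (0.0502) or no filter (0.0969).

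**Figure D3:**
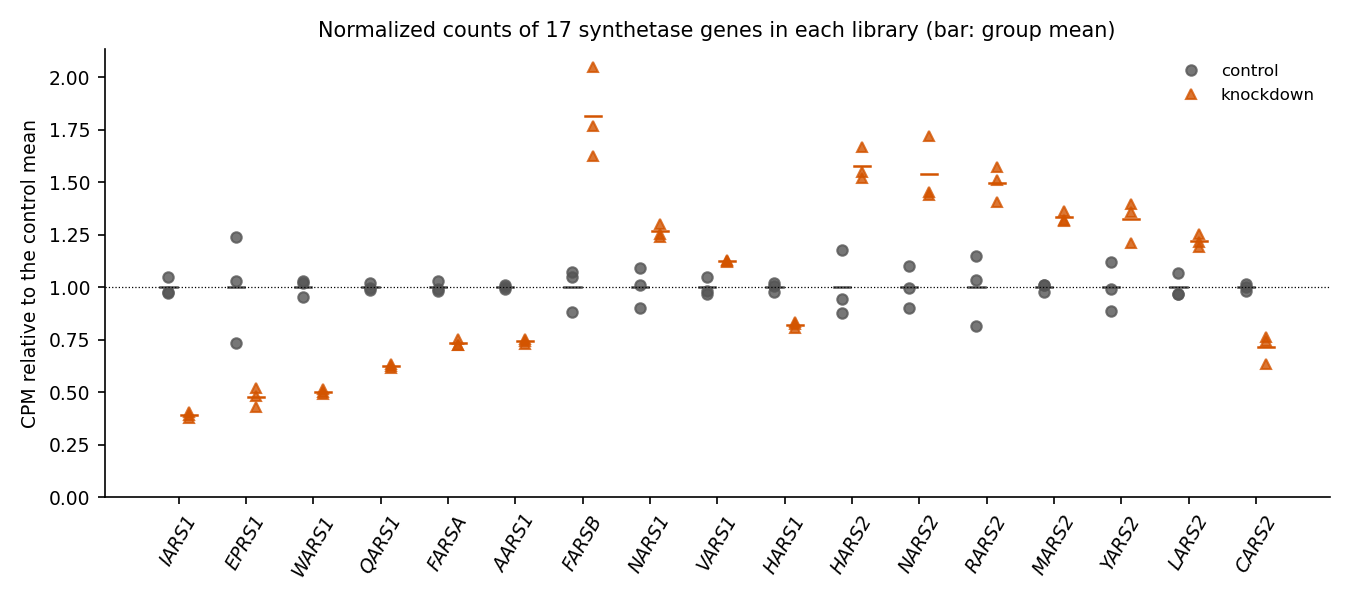
CPM of 17 synthetase genes in each library, divided by the mean of the 3 control libraries; circles are control, triangles knockdown, and short bars the group means. IARS1, EPRS1 and WARS1 stand near or below 0.503 of the control mean in the knockdown, and FARSB near 1.81.

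The subunits of the cytosolic phenylalanine enzyme moved in opposite directions. FARSA encodes the alpha subunit and FARSB the beta subunit of a tetramer that needs both. FARSA was at 432, 411 and 416 CPM in the control, against 303, 316 and 303 CPM in the knockdown (chromosome 19, 12922479 to 12934037). FARSB was at 33.9, 40.2 and 41.1 CPM in the control, against 62.3, 67.8 and 78.6 CPM in the knockdown (chromosome 2, 222570536 to 222656337). No knockdown library overlapped a control library for either gene. The log2 fold change was -0.45 ± 0.03 for FARSA and 0.86 ± 0.10 for FARSB (edgeR adjusted p = 2.52e-05 and 0.000501). Per kilobase of exon, the ratio of FARSA to FARSB was 17.7, 14.2 and 14.0 in the control, against 6.73, 6.44 and 5.34 in the knockdown libraries. The difference of the log2 ratio was -1.31 (exact permutation test over the 6 libraries, two-sided p = 0.1, the smallest that 3 against 3 allows). FARSA transcripts have a GC content of 60.3% and FARSB transcripts 41.6%, and with the GC and length trend removed the log2 fold changes were -0.21 and 0.50.

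Among the mitochondrial enzymes HARS2, which charges histidine tRNA, had the largest increase in the edgeR fit. It was at 25.8, 34.7 and 27.8 CPM in the control, against 45.6, 49.04 and 44.7 CPM in the knockdown, with a log2 fold change of 0.66 ± 0.11 (edgeR adjusted p = 0.00333). MARS2, the methionine enzyme, was at 73.6, 76.0 and 76.0 CPM in the control, against 98.7, 99.2 and 102.6 CPM in the knockdown. Its groups were narrow and separate, and it gave the lowest adjusted p of the mitochondrial genes, with a log2 fold change of 0.41 ± 0.04 (edgeR adjusted p = 8.87e-05). LARS2, the leucine enzyme, was at 42.5, 42.7 and 46.9 CPM in the control, against 53.5, 52.5 and 55.2 CPM in the knockdown (0.29 ± 0.06, edgeR adjusted p = 0.00878).

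NARS2 (asparagine) was at 14.6, 13.3 and 12.003 CPM in the control, against 22.9, 19.3 and 19.2 CPM in the knockdown (0.62 ± 0.13, edgeR adjusted p = 0.0121). RARS2 (arginine) was at 16.7, 11.8 and 15.03 CPM in the control, against 21.9, 22.8 and 20.4 CPM in the knockdown (0.58 ± 0.14, edgeR adjusted p = 0.0270). YARS2 (tyrosine) was at 20.5, 25.9 and 22.9 CPM in the control, against 28.0, 32.2 and 31.4 CPM in the knockdown (0.40 ± 0.11, edgeR adjusted p = 0.0336). In all 3 genes every knockdown library was above every control library, and their calls were not firm. For NARS2 the call was lost without control library 2 or 3 or knockdown library 1 (0.53 to 0.62, adjusted p of 0.0501 to 0.0545), for RARS2 without control library 3 or any 1 of the knockdown libraries (0.54 to 0.62, adjusted p of 0.0668 to 0.115), and for YARS2 without any library but control library 2 (0.33 to 0.46, adjusted p of 0.0510 to 0.144). For YARS2 it was also lost with limma-voom (adjusted p = 0.0635) or no filter (0.0870). With the added number modelled, RARS2 was at 0.96 (95% interval 0.66 to 1.12) and HARS2 at 0.75 (0.61 to 0.88). In that model NARS2 was at 0.52 (0.37 to 0.73) and YARS2 at 0.53 (0.28 to 0.69). The RARS2 interval leaves out its edgeR value of 0.58, and such intervals may be too narrow at these counts.

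CARS2, the mitochondrial cysteine enzyme, was the only mitochondrial gene that fell in the edgeR fit of all genes tested. It was at 59.1, 59.96 and 58.1 CPM in the control, against 37.4, 45.1 and 43.9 CPM in the knockdown, a log2 fold change of -0.49 ± 0.07 (edgeR adjusted p = 0.00193). WARS2 (0.51 ± 0.16, edgeR adjusted p = 0.0668) and IARS2 (0.40 ± 0.13, 0.0896) did not pass, nor did FARS2 (-0.24 ± 0.07, 0.0685). With DESeq2 WARS2, IARS2 and FARS2 did pass (adjusted p of 0.0299, 0.00867 and 0.0297), and with limma-voom none did (0.0971, 0.155 and 0.141). FARS2 also passed as lower in the edgeR fit of well-measured genes (-0.22, adjusted p = 0.0344). EARS2 (0.10 ± 0.05), PARS2 (0.04 ± 0.17), TARS2 (-0.05 ± 0.05) and AARS2 (-0.10 ± 0.06) lay near 0. EARS2 charges glutamate and, in mitochondria, also the glutamine tRNA, which the GatCAB amidotransferase then converts. SARS2 had a mean of 103 counts and VARS2 of 41.5, at the level of the added number, so neither gives a direction in the edgeR fit (-0.62 ± 0.41 and -0.08 ± 1.81). SARS2 shares 349 exon bases with MRPS12, a gene with a mean of 2658 counts on the opposite strand, and 1492 with a readthrough gene on its own strand.

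With the added number modelled over the 28303 genes tested, 6 cytosolic genes were higher and 11 lower, and 8 mitochondrial genes were higher and 2 lower. Over all genes that model passed 33.6%, 16.7% as higher and 16.9% as lower. It uses the same dispersion for every gene. Taking any number from 0 to 100 off each value, the sign of the fold change was fixed for 27 of the 38 members, among them all 20 that edgeR called.

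For 14 amino acids a cytosolic and a mitochondrial gene were paired, with FARSA standing for the cytosolic phenylalanine enzyme and EPRS1, EARS2 and PARS2 left out because EPRS1 serves both their amino acids. The mitochondrial gene had the higher log2 fold change in 10 of the 14, or in 9 with FARSB in place of FARSA. The serine and valine pairs are not among those 10, and neither gives a direction because SARS2 and VARS2 are at the level of the added number. The cytosolic gene fell and the mitochondrial gene rose for histidine, methionine and tyrosine. The largest gaps were for isoleucine, at -1.35 for IARS1 and 0.40 for IARS2, and for tryptophan, at -0.99 for WARS1 and 0.51 for WARS2. Per kilobase of exon, the ratio of IARS1 to IARS2 was 1.88 ± 0.336 in the control, against 0.556 ± 0.0915 in the knockdown (SD, n = 3). For WARS1 to WARS2 it was 24.96 ± 2.28 in the control, against 8.75 ± 0.420 in the knockdown. Cysteine went the other way, with a ratio of CARS1 to CARS2 of 1.56 ± 0.0528 in the control, against 1.98 ± 0.293 in the knockdown. For leucine, serine, threonine and valine the ratios of the groups overlapped. The size of each ratio depends on the length used, and its relative change between the groups does not. The difference between the genes of a pair was not tested.

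**Figure D4:**
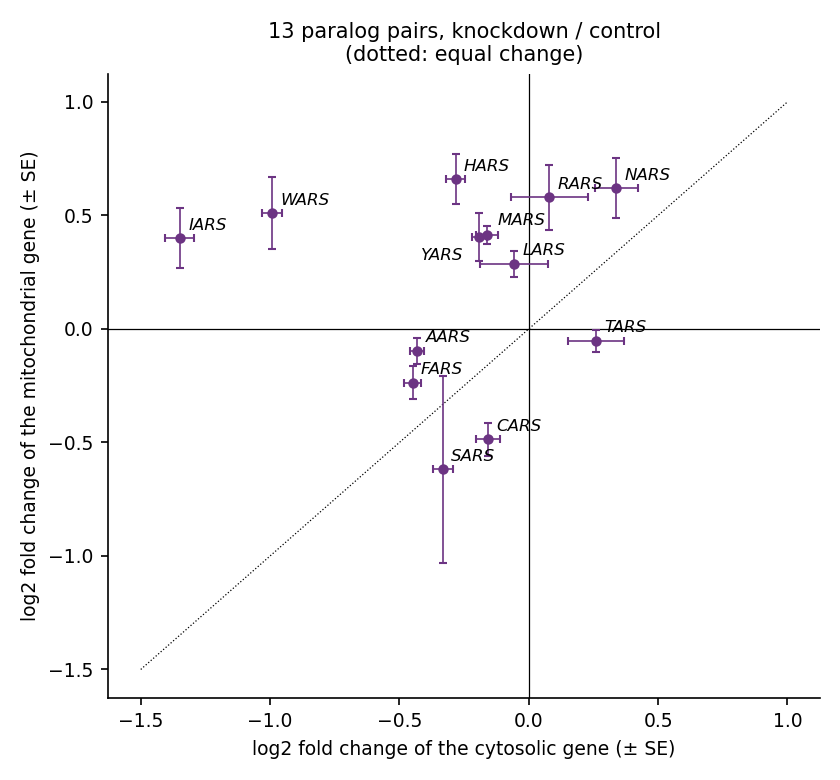
Log2 fold change of the mitochondrial gene against that of the cytosolic gene for 13 amino acids (bars are SE). Valine is left out because VARS2 is at the level of the added number. Serine is shown, though SARS2 is at that level too. Points above the dotted line had the higher fold change in the mitochondrial gene, which is 10 of the 13 with phenylalanine paired as FARSA and FARS2; with FARSB that pair would lie below the line.

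HARS1 and HARS2 are neighbours on chromosome 5, transcribed away from each other from starts 85 bases apart in RefSeq (GRCh38.p14). HARS1 was at 118, 122 and 124 CPM in the control, against 97.6, 100.2 and 101.5 CPM in the knockdown, and so fell (-0.28 ± 0.04, edgeR adjusted p = 0.000619) while HARS2 rose. The ratio of HARS1 to HARS2 per kilobase of exon went from 1.99 ± 0.278 to 1.02 ± 0.0546 (SD, n = 3). The union of exons is 7.853 kb for HARS1 and 3.736 kb for HARS2, against longest transcripts of 3.494 and 2.51 kb. The size of the ratio depends on the length used, so the knockdown value does not show equal levels. The 84 bases between the starts, chr5:140691371-140691454, are shown on the strand of HARS2 because the pair shares them, with matches to CCGGAAGT, the core bound by ETS-family factors, in capitals on either strand.

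HARS1-HARS2: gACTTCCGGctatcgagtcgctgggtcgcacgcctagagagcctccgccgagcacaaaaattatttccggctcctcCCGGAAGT

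The letters CCGGAAGT occur 2 times here, once on each strand, and on either strand they occur in 4.14% of the 35116 RefSeq promoter windows of 300 bases. In GENCODE release 29 the genes also share 437 exon bases on opposite strands, and their coding sequences are alike, so reads could be shared between them if the counting did not use strand or kept reads that map to several places. HARS2 also shares 152 exon bases on its own strand with ZMAT2, a gene with a mean of 1120 counts. HARS1 shares 221 with WDR55 (mean of 1125 counts) on the opposite strand.

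TGATGNAA is the core of the element that ATF4 binds with C/EBP partners. Promoter windows of 300 bases were found in RefSeq for 33 members, and 8 of the 33 hold TGATGNAA on either strand, 7 of 16 cytosolic and 1 of 14 mitochondrial genes. Of all 35116 windows 3.62% hold it, and of all 27305 genes with a window 4.46%. In the part before the start alone it was found in 4 of the 33, which are 3 of 16 cytosolic and 1 of 14 mitochondrial genes. That part holds it in 3.14% of all windows and for 3.89% of all genes with a window. The 8 matches are shown as 30 bases each in the direction of the gene, with the match in capitals (TTNCATCA is TGATGNAA on the other strand).

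TARS1 (chr5:33440956-33440985, plus strand): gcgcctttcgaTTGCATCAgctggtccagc
GARS1 (chr7:30594834-30594863, plus strand): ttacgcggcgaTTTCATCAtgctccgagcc
IARS1 (chr9:92293692-92293721, minus strand): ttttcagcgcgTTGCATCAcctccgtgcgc
CARS1 (chr11:3057407-3057436, minus strand): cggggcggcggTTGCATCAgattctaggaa
YARS2 (chr12:32756076-32756105, minus strand): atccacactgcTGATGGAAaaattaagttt
MARS1 (chr12:57488053-57488082, plus strand): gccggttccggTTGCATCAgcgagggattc
AARS1 (chr16:70289675-70289704, minus strand): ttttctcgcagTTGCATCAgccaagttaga
NARS1 (chr18:57621804-57621833, minus strand): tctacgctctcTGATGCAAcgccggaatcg

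A match describes letters in a window and not a bound site. The genes that hold it did not share a call in the edgeR fit. IARS1, AARS1 and MARS1 fell, NARS1 and YARS2 rose, and CARS1, GARS1 and TARS1 did not pass. Some of these calls were not firm. With the GC and length trend removed NARS1 was at 0.06 and did not pass, nor did GARS1 (-0.0078) and TARS1 (-0.018). CARS1 passed as lower in that fit (-0.14, edgeR adjusted p = 0.0148). IARS1, AARS1 and MARS1 stayed lower there, and YARS2 stayed higher. In the edgeR fit of well-measured genes CARS1 passed as lower (-0.14, adjusted p = 0.0269). GARS1 (0.15, 0.0337) and TARS1 (0.28, 0.0401) passed there as higher. CARS1 (-0.16) also passed as lower with DESeq2 (adjusted p = 0.0200). Of the other cytosolic genes that fell, QARS1, WARS1, EPRS1, FARSA, SARS1 and HARS1 have no match in these windows, and YARS1 had no window. Whether a match goes with a direction was not tested.

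Other genes of the pathway were read against the same background, in which 16.5% of all genes tested and 77.0% of well-measured genes passed. Of 24 genes of the amino acid response and ATF4 list 11 fell, 7 rose and 6 did not pass (edgeR), with a median log2 fold change of -0.25. Of its 16 well-measured genes 15 passed, and with the GC and length trend removed 9 were lower and 4 higher, with a median of -0.094. PHGDH (-1.64 ± 0.04), SHMT2 (-1.22 ± 0.03) and PSAT1 (-1.16 ± 0.07), enzymes of serine and glycine synthesis, fell, and EIF2S1, the alpha subunit of initiation factor eIF2, rose (1.17 ± 0.08). Of 15 amino acid transporters 6 fell and 3 rose, and all 9 of the well-measured ones passed. The leucine transporter SLC7A5 (-0.90 ± 0.03), the neutral amino acid transporter SLC1A4 (-0.92 ± 0.10) and the arginine and lysine transporter SLC7A1 (-0.57 ± 0.04) fell, and the glutamine transporter SLC38A2 rose (1.13 ± 0.08).

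Of 26 genes of tRNA processing and export 9 rose, 1 fell and 16 did not pass, with a median of 0.20; of the 10 well-measured ones 8 passed. CLP1 (0.89 ± 0.10) and TSEN34 (0.77 ± 0.07), of tRNA splicing, HSD17B10 (0.44 ± 0.05), a subunit of mitochondrial RNase P, and POP4 (0.43 ± 0.09), of nuclear RNase P, rose. Of 14 factors that amidate, formylate, edit or release aminoacyl-tRNA or make selenocysteine, 4 fell and 1 rose, and 5 of the 6 well-measured ones passed. SEPHS1 (-0.75 ± 0.05), a homologue of the selenophosphate synthetase, PTRHD1 (-0.64 ± 0.08) and GATB (-0.39 ± 0.11), the B subunit of the mitochondrial amidotransferase, fell, and the peptidyl-tRNA hydrolase PTRH2 rose (0.54 ± 0.08). Of 15 mitochondrial translation factors 4 rose and 1 fell, and 3 of the 4 well-measured ones passed; with the GC and length trend removed 1 was higher and 2 lower. The elongation factor TUFM fell (-0.41 ± 0.04), and GFM2 (0.50 ± 0.10), of ribosome recycling, and MTG2 (0.32 ± 0.06), a ribosome assembly GTPase, rose. Of 7 cytosolic elongation factors tested, 3 fell and 1 rose, and 5 of the 6 well-measured ones passed, with EEF2K, the kinase of EEF2, at -0.76 ± 0.07, EEF1D at -0.26 ± 0.02, EEF2 at -0.22 ± 0.02 and EIF5A at 0.23 ± 0.02. With the GC and length trend removed, EEF1D and EEF2 were at 0.04 and 0.01, PTRH2 and GFM2 at 0.16 and 0.18, and none of the 4 passed. The call was lost for GATB without any library but control library 1 (-0.28 to -0.45), for POP4 without control library 2 or knockdown library 2 or 3 (0.40 to 0.43), and for GFM2 without control library 1 or 2 or knockdown library 1 (0.42 to 0.48).

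Fold changes followed GC content. Across the 5031 genes that average 500 counts or more and have a GC value, Spearman's rho between log2 fold change and GC content was -0.393, and across the 27 members of this kind it was -0.423 (genes are not independent replicates). Within the compartments it was -0.375 over 17 cytosolic and -0.933 over 9 mitochondrial genes. The median GC content was 48.6% over the 19 cytosolic and 51.2% over the 16 mitochondrial genes. After the trend with GC content and length was taken out of each library, 12 cytosolic genes were lower and 2 higher of 17, and 5 mitochondrial genes were higher and 1 lower of 9 (edgeR; 36.1% of all genes in that fit were lower, 40.3% higher and 76.5% passed). The medians were then -0.14 and 0.13. EPRS1, NARS2 and RARS2, which edgeR called, average below 500 counts and could not be corrected, nor could WARS2 and IARS2. Transcripts of NARS2, RARS2, WARS2 and IARS2 have a GC content of 41.9% to 43.9%. All 6 complex genes with enough counts, counting AIMP2 among them, were lower in that fit, including LARS1 at -0.39 and KARS1 at -0.13. NARS1 dropped to 0.06 and no longer passed. Among the called genes VARS1 went to 0.48, HARS1 to -0.48, YARS1 to -0.080 and MARS2 to 0.27, and all 4 still passed. The part of the GC trend in the results was not tested further.

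**Figure D5:**
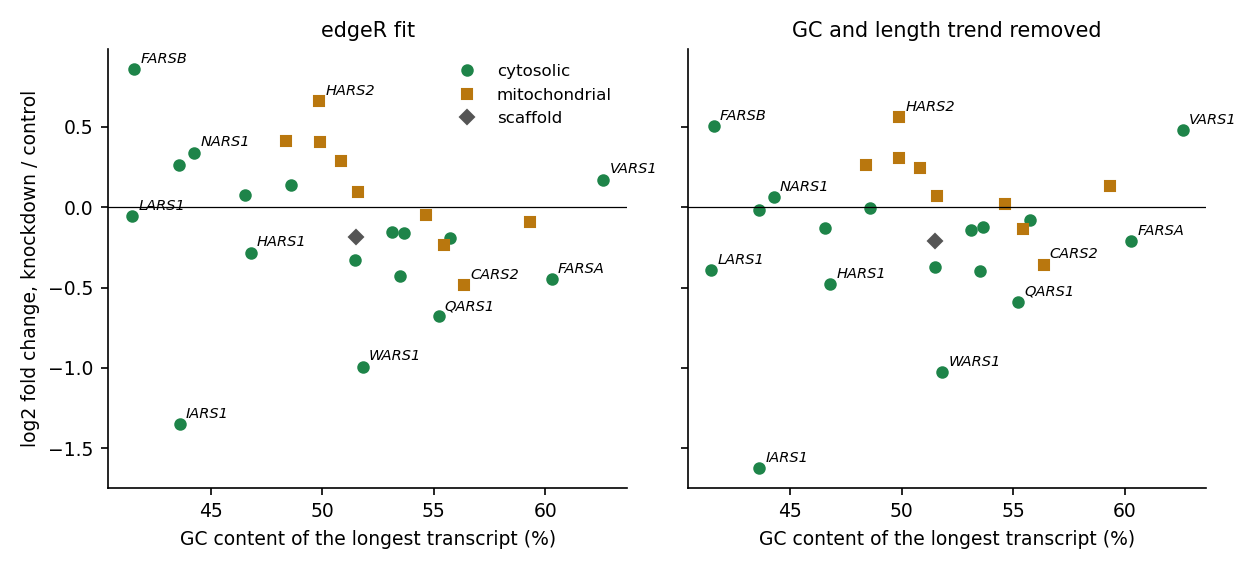
Log2 fold change against GC content of the longest transcript for the 27 members that average 500 counts or more, in the edgeR fit of all genes tested (left) and with the GC and length trend removed (right). The rank correlation is -0.423 on the left and -0.0501 on the right, and IARS1 and WARS1 stay lowest in both.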

How the data were processed

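RNA-seq of poly(A)-enriched RNA from 3 control and 3 knockdown samples was compared, grouped by title. The deposited values are counts for each gene, whole numbers called raw per the file headers. Per the submitters' processing notes the tools included STAR, HTSeq, fastp, FastQC, R 4.3.3 and DESeq2, and the build was GRCh38. How reads were assigned, whether by strand and with which annotation, is not given in the sources used here. IDs were matched to symbols without version (61803 of 61852). Coordinates, exon lengths and overlaps are from GENCODE release 29 (GRCh38), and promoter sequences from RefSeq (GRCh38.p14). Counts were fitted with edgeR 4.0.16 (TMM, filterByExpr at a minimum count of 10, robust quasi-likelihood test, no block), with Benjamini-Hochberg adjusted p below 0.05 over all genes tested. SE is the log2 fold change divided by the square root of F, and CPM are scaled by TMM. A second model took each value as a negative binomial count (dispersion 0.0014) plus a number drawn equally from 0, 1, 2, 10 and 100 (likelihood-ratio test). That dispersion was the common value over genes that average at least 2000 counts. GC content and length trends were removed with mgcv 1.9.3. DESeq2 1.42.0 and limma 3.58.1 (voom) were alternatives. The scripts were tested on simulated data. All members are named; values per library are given for up to 6 called genes in each direction per compartment, the scaffold genes and HARS1. Members, lists and alternatives were chosen with earlier results of these data known.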

Additional observations from a re-analysis of the deposited data

How the results depend on the processing

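The direction of both medians held under every alternative run: -0.20 to -0.09 over the cytosolic genes and 0.11 to 0.34 over the mitochondrial genes. The GC and length correction covers only 17 of the cytosolic and 9 of the mitochondrial genes. The mitochondrial median was 0.34 with a filter of 5 CPM in 3 libraries, which leaves 14 of the 16 genes, and 0.20 to 0.34 with 1 library left out. The count of changed mitochondrial genes was 7 and ranged from 4 (without control library 3 or knockdown library 1) to 8 with 1 library left out, and it was 10 with DESeq2, with the filter of 5 CPM and with the model of the added number; the cytosolic count was 13 and ranged from 10 to 17 over all alternatives. The number of all genes changed in the knockdown was 9503 with the model of the added number, against 4683. Library size alone turned their balance to 2690 higher and 2085 lower and shifted the median of all genes by 0.07.

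With the GC and length correction, alone and with the replicate block, the sign turned for GARS1 (-0.0078 and -0.0063), KARS1 (-0.13 and -0.13), TARS1 (-0.018 and -0.016), AARS2 (0.13 and 0.13), TARS2 (0.017 and 0.016), EEF1D (0.038 and 0.038) and EEF2 (0.012 and 0.012). With library size alone it turned for LARS1 (0.014) and TARS2 (0.018). With 1 library left out, LARS1 ranged from -0.21 to 0.051, RARS1 from -0.020 to 0.27, PARS2 from -0.087 to 0.19, VARS2 from -2.67 to 2.20 and AIMP1 from -0.27 to 0.51. Same-numbered libraries did not deviate together (correlations 0.0998, -0.0124 and -0.0801, over 5038 genes). With the replicate block the number of all genes changed in the knockdown was 4182, 11 cytosolic and 6 mitochondrial genes passed, and MARS1, NARS1 and RARS2 did not (-0.16, 0.34 and 0.59). Depth limits VARS2, EEF1E1, SARS2, AIMP1 and EPRS1, whose counts are near the largest added number.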
